A study of Homo sapiens with 9 samples.

Results

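Amino acid transporters of the plasma membrane were followed across 9 poly(A)-selected RNA sequencing libraries of a human pancreatic cancer cell line. The members were named as a fixed list of 10 genes of the solute carrier (SLC) families: SLC7A5, SLC3A2, SLC7A11, SLC7A1, SLC38A1, SLC38A2, SLC1A4, SLC1A5, SLC6A9 and SLC43A1. They are 10 of the 56865 genes whose estimated reads were summed, and all 10 were among the 13914 genes that passed the filter on low counts. Cells labelled BxPC3 received MS172, PK9328 or the vehicle DMSO, with 3 libraries per group. The protocol states 5 µM over 6 h for PK9328 and a compound it calls MS78; MS172 appears in the titles and treatment labels and not there, so its dose and time are taken from that protocol with this doubt. As described by the submitters, all groups share the line, its genotype and a medium of RPMI with fetal bovine serum. Whether the replicates were separate cultures is not labelled; if they were not, the spread behind each p-value is technical. As in any bulk measurement, fewer expressing cells and less RNA per cell cannot be told apart.

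Amino acids do not cross the cell membrane on their own, and cells depend on carriers for them. SLC3A2 (CD98 heavy chain) is a glycoprotein that brings light chains to the membrane. With SLC7A5 (LAT1) it forms an exchanger that takes up leucine and other large neutral amino acids, and with SLC7A11 (xCT) one that takes up cystine, the precursor of glutathione, in exchange for glutamate. SLC38A1, SLC38A2, SLC1A4 and SLC1A5 carry glutamine, alanine, serine and related neutral amino acids with sodium, SLC7A1 carries arginine and lysine, SLC6A9 carries glycine, and SLC43A1 (LAT3) carries branched-chain amino acids. Several of these genes are known targets of ATF4, a transcription factor made when the kinases of the integrated stress response phosphorylate eIF2. Pancreatic cancers are known for a high demand for glutamine and cystine.

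The libraries held 24077353 to 28031886 estimated reads. Fragment length, read from the deposited effective lengths, was 274 to 293 bases in MS172 libraries, 250 to 263 bases in PK9328 libraries and 281 to 289 bases in DMSO libraries. The PK9328 libraries were therefore the shortest of all, and fragment length and PK9328 treatment cannot be told apart in these libraries. A call lost with fragment length as a covariate therefore cannot tell whether a difference goes with the compound or with fragment length. EPCAM, CDH1, KRT7 and 4 more of the 13 ductal and epithelial markers did not reach 1 CPM (reads scaled to a common library size) in any library. The keratins KRT18, KRT8 and KRT19 and the claudin CLDN4 averaged 785, 732, 311 and 122 CPM with DMSO. The markers under 1 CPM put the labelled line BxPC3 in doubt, and the identity of the cells was not tested. The sum of the 13 ductal and epithelial markers was 2304 to 2435 CPM with MS172, 1761 to 1855 CPM with PK9328 and 1867 to 2020 CPM with DMSO. The 7 mesenchymal markers, led by VIM, summed to 12400 to 12930 CPM, 9980 to 10250 CPM and 11790 to 11970 CPM in the same order of groups. VIM and COL1A2 made up most of this sum (9391 and 2416 CPM with DMSO), while CDH2 and FN1 did not reach 1 CPM in any library. ZEB1 ran the other way, with means of 85.2 CPM with MS172, 99.9 CPM with PK9328 and 91.8 CPM with DMSO. The 5 acinar and endocrine markers were at 0 in all libraries, the 3 endothelial markers summed to at most 0.408 CPM, and the 4 leukocyte markers to 17.66 to 23.75 CPM. CD68 made up nearly all of the leukocyte sum, and the other leukocyte markers did not reach 1 CPM in any library. The ductal and mesenchymal sums were highest with MS172 and lowest with PK9328, and their part in the transporter results was not tested.

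Levels were compared between genes in TPM (transcript abundance per length). With DMSO the order ran SLC3A2 (255 to 262 TPM over 3 libraries), SLC38A2 (148 to 173 TPM), SLC1A5 (135 to 139.85 TPM) and SLC7A5 (106 to 109 TPM). A second tier held SLC38A1 (17.1 to 20.6 TPM), SLC7A1 (12.9 to 14.3 TPM) and SLC43A1 (12.6 to 14.2 TPM). SLC6A9 (5.32 to 6.26 TPM), SLC1A4 (2.72 to 3.40 TPM) and SLC7A11 (1.15 to 1.61 TPM) were lowest. SLC7A1 and SLC43A1 did not differ beyond their spread, while the ranges of all other neighbours in the DMSO libraries did not overlap. The mean of SLC3A2 was 190.4 times that of SLC7A11 with DMSO. The 10 genes kept the same order of mean TPM in all 3 groups. Their summed level was 729 to 747 TPM with MS172, 964 to 981 TPM with PK9328 and 701 to 740 TPM with DMSO, so that the PK9328 libraries stood above all others.

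**Figure D1:**
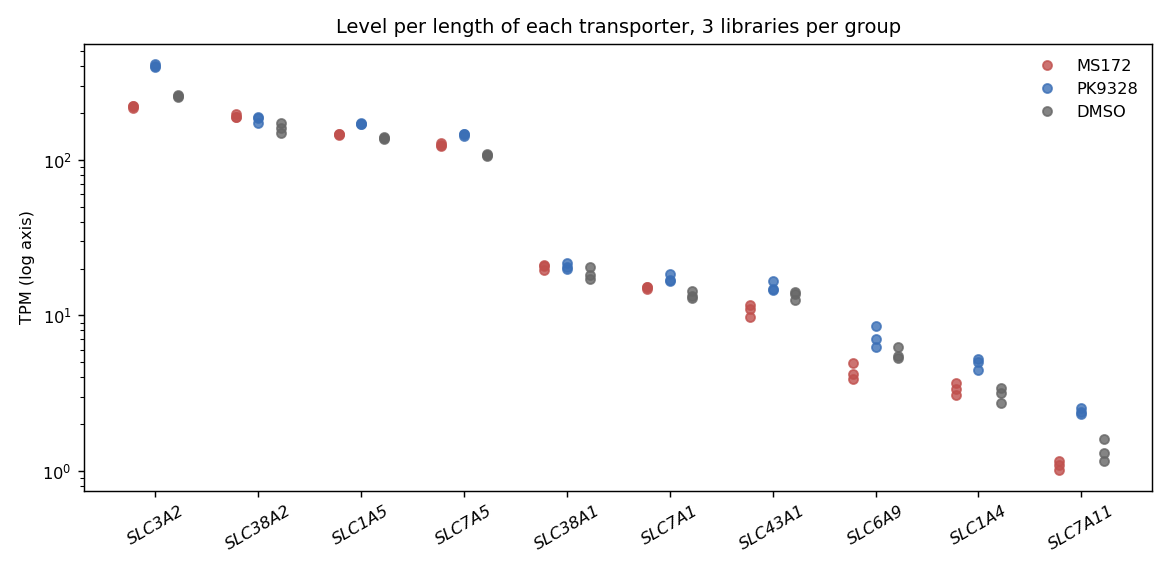
Level per length of each transporter (vertical log axis, TPM) in the 3 libraries of each group, with genes ordered by their DMSO mean. SLC3A2, SLC38A2, SLC1A5 and SLC7A5 lie above 100 TPM in every library, and SLC7A11 lies lowest, at 1.01 to 1.16 TPM with MS172, 2.33 to 2.55 TPM with PK9328 and 1.15 to 1.61 TPM with DMSO.

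In the main edgeR fit nearly the whole list rose with PK9328, and part of it with MS172, where the CD98 heavy chain was not called. Each gene was tested with edgeR's quasi-likelihood test and called at a Benjamini-Hochberg adjusted p under 0.05 over all genes tested. Against DMSO, 6 of 10 members rose and 1 fell with MS172, where 17.9% of all genes tested rose, 17.2% fell and 35.1% changed in either direction. With PK9328, 9 of 10 rose and 0 fell, against 7.98% that rose, 7.48% that fell and 15.5% that changed among all genes. The CPM ranges of 3 and 3 libraries did not overlap for 8 members with MS172 and for 9 with PK9328, where 44.7% and 31.3% of all genes did not overlap. The median log2 fold change of the members was 0.22 with MS172 (-0.02 over all genes) and 0.34 with PK9328 (0.0023 over all genes). Both comparisons share the DMSO libraries. The members were chosen with earlier results of these data known, so the shares of all genes describe the list and do not test it. With fragment length as a covariate the members that rose with PK9328 were 3 (SLC7A5, SLC3A2 and SLC1A5), where 0.783% of all genes rose, and the median of the members was 0.36 with all 10 above 0. On log2 TPM 2 members rose and 2 fell with MS172, where 3.39% of all genes rose and 27.2% fell. The members that rose with PK9328 were 6 on log2 TPM (4.17% of all genes) and 6 with length-scaled TPM (3.78%). They were also 6 on log2 TPM centred on each library's median (2.29%), and 7 to 9 with a library left out.

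The compounds were then compared with each other, which is the test of their difference. In MS172 libraries 2 members were higher and 6 lower than in PK9328 libraries, where 23.3% of all genes were higher, 24.4% lower and 47.7% changed in either direction. The ranges of 9 members did not overlap between the compounds, against 55.4% of all genes. With the covariate 2 members were lower with MS172 (7.95% of all genes), on centred log2 TPM 3 were (12.3%), and on log2 TPM 0 were higher (5.2%). The median log2 difference of the members, MS172 minus PK9328, was -0.26, and that of all genes was -0.03. SLC38A1 and SLC38A2 were the higher ones, and SLC3A2, SLC7A11, SLC1A4, SLC1A5, SLC6A9 and SLC43A1 the lower ones; SLC38A1 turned to -0.017 on log2 TPM and SLC1A5 to 0.074 on log2 TPM centred on each library's median. SLC7A5 and SLC7A1 were not called, except on log2 TPM (-0.21 and -0.20, limma adjusted p = 0.00064 and 0.039), where the median of all genes was -0.23.

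**Figure D2:**
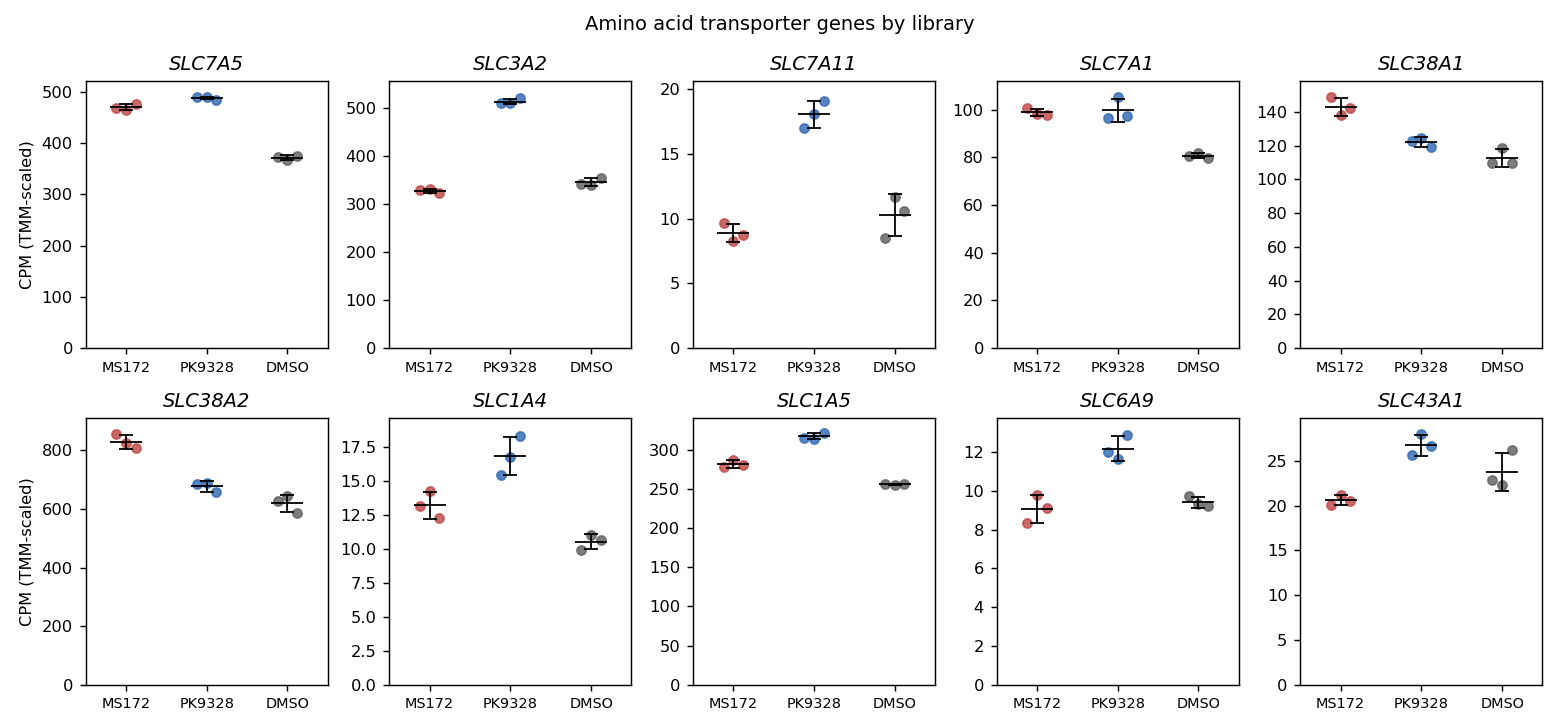
CPM of each transporter gene (vertical axis, from 0) in each of the 3 libraries of MS172, PK9328 and DMSO, with the mean as a line and the SD as bars. SLC3A2 and SLC7A11 stand apart with PK9328, SLC38A2 and SLC38A1 are highest with MS172 (SLC38A1 turned to -0.017 against PK9328 on log2 TPM), and SLC7A5 and SLC7A1 are above DMSO with both compounds.

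The CD98 heavy chain and its cystine partner differed most between the compounds. SLC3A2 (chr11:62856102-62888875, plus strand; coordinates here are GENCODE 29 on GRCh38, counted from 1) had 329, 331 and 322 CPM in MS172 libraries, 511, 510.1 and 520.0 CPM in PK9328 libraries, and 341, 339.9 and 355 CPM in DMSO libraries. The PK9328 libraries were far above all others, and the MS172 libraries lay below the lowest DMSO library. With PK9328 it averaged 514 ± 5.5 CPM and with DMSO 345 ± 8.3 CPM (SD, n = 3 each), which is 0.57 ± 0.03 higher on the log2 scale (± SE, edgeR adjusted p = 1.7e-13). With MS172 it averaged 327 ± 4.4 CPM, and its value of -0.08 against DMSO was not called (edgeR adjusted p = 0.091, 95% interval without adjustment -0.15 to -0.0047), though it was on log2 TPM (-0.23, limma adjusted p = 0.00062; all-gene median -0.17). Between MS172 and PK9328 the log2 difference was -0.65 ± 0.03 (edgeR adjusted p = 2e-15).

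SLC7A11 (chr4:138164097-138242349, minus strand), the cystine light chain, had 9.63, 8.26 and 8.76 CPM in MS172 libraries, 17.0, 18.1 and 19.1 CPM in PK9328 libraries, and 8.53, 11.7 and 10.6 CPM in DMSO libraries. Every PK9328 library was above every other library, and the MS172 and DMSO ranges overlapped. It rose by 0.81 ± 0.10 with PK9328 on the log2 scale (edgeR adjusted p = 4.8e-07), the largest of the 10 values, but with fragment length as a covariate it was 0.49, below SLC1A4 (0.54) and SLC3A2 (0.53), and not called (edgeR adjusted p = 0.26). Its log2 fold change with MS172, -0.21, was not called (edgeR adjusted p = 0.12, interval -0.43 to 0.0033), but without DMSO replicate 1 it was -0.33 and called (edgeR adjusted p = 0.017). MS172 minus PK9328 came to -1.02 ± 0.10 (edgeR adjusted p = 1.5e-09).

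SLC7A5 (chr16:87830023-87869488, minus strand), the leucine light chain, had 469, 465 and 477 CPM in MS172 libraries, 489, 489 and 485 CPM in PK9328 libraries, and 372, 366 and 375 CPM in DMSO libraries. All libraries of both compounds lay above all DMSO libraries. The pseudogenes SLC7A5P1 and SLC7A5P2 are annotated, and how far they share reads with SLC7A5 was not tested. It rose by 0.34 ± 0.03 with MS172 (edgeR adjusted p = 4.8e-09) and by 0.39 ± 0.03 with PK9328 (edgeR adjusted p = 9.9e-10) on the log2 scale. Between the compounds the value was -0.05 and not called (edgeR adjusted p = 0.22, interval -0.12 to 0.02), although the ranges of the compounds did not overlap. It turned to 0.09 on centred log2 TPM. Taken by transcript, MS172 minus DMSO was -0.05 for SLC7A5-201, with 507 codons (edgeR adjusted p = 0.9). For SLC7A5-203, with 241 codons, it was 1.01 and not called (edgeR adjusted p = 0.097). PK9328 minus DMSO was 0.40 and 0.30 for these transcripts (edgeR adjusted p = 0.22 and 0.85).

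In the edgeR fit SLC7A5 thus rose with both compounds, while SLC3A2 rose with PK9328 and was not called with MS172. The ratio of SLC7A5 to SLC3A2 in TPM was 0.570 ± 0.0086 with MS172, 0.361 ± 0.012 with PK9328 and 0.417 ± 0.0027 with DMSO (SD, n = 3 each). The 3 groups did not overlap, with MS172 highest and PK9328 lowest. The ratio holds all transcripts of both genes, and SLC7A5-201 alone was not higher with MS172 than with DMSO. On the log2 scale the ratio differed by 0.45 for MS172 minus DMSO, by -0.21 for PK9328 minus DMSO and by 0.66 for MS172 minus PK9328. An exact two-sided permutation test gave p = 0.1 for each, the smallest that 3 against 3 libraries allow. The ratio of SLC7A11 to SLC3A2 was 0.00493, 0.00601 and 0.00525 in the same order of groups, and only the compounds did not overlap with each other (log2 difference -0.29, exact permutation p = 0.1); PK9328 minus DMSO was 0.21 (exact permutation p = 0.3) and MS172 minus DMSO -0.08 (exact permutation p = 0.7).

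In CPM SLC38A1 and SLC38A2, sodium-coupled carriers of neutral amino acids, were highest with MS172, an order that SLC38A1 did not keep on log2 TPM. SLC38A2 (chr12:46358189-46372867, minus strand) encodes SNAT2, a carrier of alanine and glutamine that cells are known to raise when amino acids are scarce. It had 855, 824 and 809 CPM in MS172 libraries, 686, 689.8 and 657 CPM in PK9328 libraries, and 626, 645 and 588 CPM in DMSO libraries. The MS172 libraries were above all others, and the lowest PK9328 library was only slightly above the highest DMSO library. It averaged 829 ± 23 CPM with MS172 and 619.9 ± 29 CPM with DMSO (SD, n = 3 each), and rose by 0.42 ± 0.04 on the log2 scale (edgeR adjusted p = 1.1e-09).

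Against DMSO the value of SLC38A2 with PK9328 was 0.13 ± 0.04 (edgeR adjusted p = 0.024), and the call was lost in 9 of 18 alternatives, among them protein coding transcripts alone (0.06, edgeR adjusted p = 0.45). Each of DMSO replicates 1 and 3 and PK9328 replicates 1 and 2 ended the call when left out (edgeR adjusted p = 0.051, 0.18, 0.087 and 0.11). The compounds differed by 0.29 ± 0.04, MS172 minus PK9328 (edgeR adjusted p = 4.2e-07), and 0.07 on log2 TPM, where it was not called (limma adjusted p = 0.31).

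SLC38A1 (chr12:46183063-46270017, minus strand), which encodes the related glutamine carrier SNAT1, had 149, 138 and 142 CPM in MS172 libraries, 123, 125 and 119 CPM in PK9328 libraries, and 109.5, 119 and 109.55 CPM in DMSO libraries. The MS172 libraries were highest, and the lowest PK9328 library lay next to the highest DMSO library. It rose by 0.35 ± 0.04 with MS172 on the log2 scale (edgeR adjusted p = 1e-07), a call lost on log2 TPM (0.14, limma adjusted p = 0.18). With PK9328 it was at the threshold (0.12 ± 0.04, edgeR adjusted p = 0.048), and 13 of 18 alternatives ended that call, leaving out DMSO replicate 1 or 3 or PK9328 replicate 1 or 2 among them (edgeR adjusted p = 0.2, 0.18, 0.12 and 0.17). The difference between the compounds was 0.23 ± 0.04, MS172 minus PK9328 (edgeR adjusted p = 2.7e-05), turning to -0.017 on log2 TPM (limma adjusted p = 0.87).

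The SLC1 carriers of glutamine and small neutral amino acids rose with both compounds, and in CPM more with PK9328, which for SLC1A5 turned on centred log2 TPM. SLC1A5 (chr19:46774883-46788594, minus strand), which encodes the glutamine exchanger ASCT2, had 278, 287 and 280.25 CPM in MS172 libraries, 315, 314 and 321 CPM in PK9328 libraries, and 257, 255 and 256 CPM in DMSO libraries. None of the 3 ranges overlapped, with MS172 between PK9328 and DMSO. It rose by 0.14 ± 0.03 with MS172 (edgeR adjusted p = 0.0019; 0.08 on log2 TPM, limma adjusted p = 0.062) and by 0.31 ± 0.03 with PK9328 (edgeR adjusted p = 7.6e-08). MS172 minus PK9328 was -0.17 ± 0.03 (edgeR adjusted p = 0.00011), but 0.074 on centred log2 TPM and -0.02 with counts rebuilt from length-scaled TPM, neither of them called (limma adjusted p = 0.18 and edgeR adjusted p = 0.63). The call also ended with fragment length as a covariate (-0.18, edgeR adjusted p = 0.074). Taken by transcript, MS172 minus DMSO was -0.09 for the main SLC1A5-203, with 541 codons, and not called (edgeR adjusted p = 0.52). For SLC1A5-201, with 313 codons, it was 0.75 (edgeR adjusted p = 0.035). PK9328 minus DMSO was 0.35 and -0.02 for these transcripts (edgeR adjusted p = 0.05 and 0.99).

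SLC1A4 (chr2:64988477-65023865, plus strand), which encodes the serine and alanine carrier ASCT1, was low. It had 13.2, 14.2 and 12.3 CPM in MS172 libraries, 15.5, 16.8 and 18.3 CPM in PK9328 libraries, and 9.92, 11.03 and 10.6 CPM in DMSO libraries. The 3 ranges were apart, again with MS172 in the middle. Its log2 fold change was 0.33 ± 0.09 with MS172 (edgeR adjusted p = 0.0052) and 0.68 ± 0.09 with PK9328 (edgeR adjusted p = 1.4e-06). The rise with MS172 was not called on log2 TPM (0.12, limma adjusted p = 0.49), centred log2 TPM (limma adjusted p = 0.086) or length-scaled TPM (edgeR adjusted p = 0.11). The compounds differed by -0.35 ± 0.09, MS172 minus PK9328 (edgeR adjusted p = 0.0011), which ended on centred log2 TPM (-0.22, limma adjusted p = 0.2). With fragment length as a covariate the calls of PK9328 against DMSO and of MS172 against PK9328 ended (0.54 and -0.21, edgeR adjusted p = 0.14 and 0.46).

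SLC7A1 (chr13:29509410-29595688, minus strand), the arginine and lysine carrier CAT1, had 101, 98.35 and 97.9 CPM in MS172 libraries, 96.6, 105 and 97.5 CPM in PK9328 libraries, and 80.6, 82.0 and 79.7 CPM in DMSO libraries. Both compounds were above DMSO without overlap, and they overlapped with each other. It rose by 0.29 ± 0.04 with MS172 (edgeR adjusted p = 2.9e-06; 0.15 on log2 TPM, limma adjusted p = 0.12) and by 0.31 ± 0.04 with PK9328 (edgeR adjusted p = 4.4e-06; 0.32 and not called with fragment length as a covariate). MS172 minus PK9328 was -0.01 (edgeR adjusted p = 0.82), with an interval of -0.10 to 0.07, and its sign turned in 5 alternatives.

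SLC6A9 and SLC43A1 carry glycine and branched-chain amino acids, and neither was higher with MS172 than with DMSO on average. SLC6A9 (chr1:43991500-44031467, minus strand), the glycine carrier GlyT1, had 8.32, 9.76 and 9.13 CPM in MS172 libraries, 12.003, 11.6 and 12.9 CPM in PK9328 libraries, and 9.73, 9.30 and 9.21 CPM in DMSO libraries. Only the PK9328 libraries stood apart. It rose by 0.37 ± 0.09 with PK9328 (edgeR adjusted p = 0.0056), a call lost with fragment length as a covariate (0.46, edgeR adjusted p = 0.31), length-scaled TPM (edgeR adjusted p = 0.18) and both TPM scales (limma adjusted p = 0.16 and 0.26), while with MS172 the value was -0.05 (edgeR adjusted p = 0.71, interval -0.25 to 0.14). Between the compounds the difference was -0.42 ± 0.09, MS172 minus PK9328 (edgeR adjusted p = 0.00041; -0.52 with the covariate, edgeR adjusted p = 0.075).

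SLC43A1 (chr11:57484534-57515786, minus strand) had 20.1, 21.2 and 20.5 CPM in MS172 libraries, 25.6, 27.999 and 26.6 CPM in PK9328 libraries, and 22.8, 22.3 and 26.2 CPM in DMSO libraries. The MS172 libraries were lowest, and the PK9328 and DMSO ranges overlapped. It was the 1 member that fell with MS172, by 0.21 on the log2 scale (edgeR adjusted p = 0.02), and DMSO replicate 3 was the highest DMSO library. Without that library the value was -0.13 (edgeR adjusted p = 0.17), and without MS172 replicate 1 it was -0.19 (edgeR adjusted p = 0.075). DESeq2 did not call it (-0.20, DESeq2 adjusted p = 0.057), nor did length-scaled TPM or centred log2 TPM (edgeR adjusted p = 0.21, limma adjusted p = 0.45). PK9328 minus DMSO was 0.17 and not called (edgeR adjusted p = 0.079, interval 0.04 to 0.31), but 0.25 and called without DMSO replicate 3 (edgeR adjusted p = 0.02). The compounds differed by -0.38 ± 0.07, MS172 minus PK9328 (edgeR adjusted p = 3.4e-05), which ended with the covariate (edgeR adjusted p = 0.063) and on centred log2 TPM (limma adjusted p = 0.14).

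**Figure D3:**
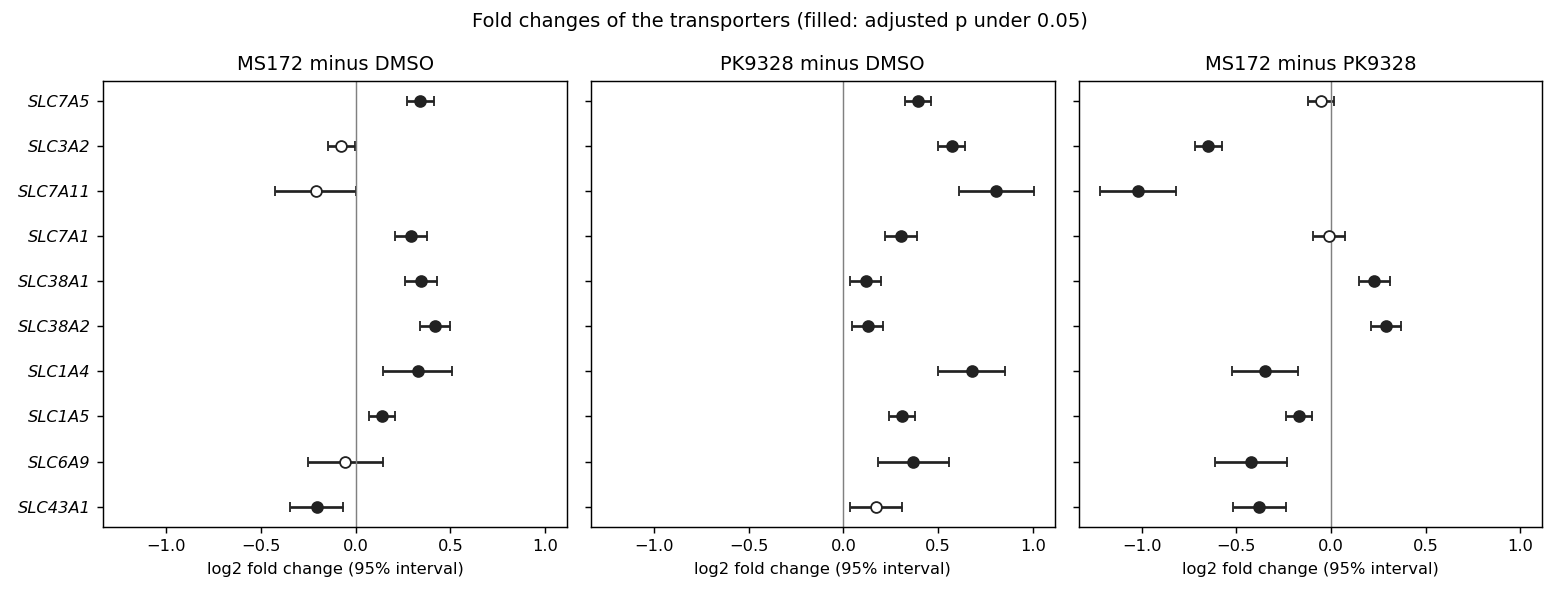
Log2 fold change (horizontal axis) of each transporter with its 95% interval, for MS172 minus DMSO, PK9328 minus DMSO and MS172 minus PK9328; filled points have an edgeR adjusted p under 0.05. SLC7A11 spans -0.21, 0.81 and -1.02 and SLC3A2 -0.08, 0.57 and -0.65, while SLC38A1 and SLC38A2 lie right of 0 in the last panel, where SLC38A1 turned to -0.017 on log2 TPM.

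Transcripts of single members also shifted in their share of the gene's TPM. The authors' quantification split the reads between transcripts, and the tests of each transcript against its gene (edgeR diffSpliceDGE) were added after the shares had been seen. Of 27 member transcripts tested in 7 genes, 1 was called for MS172 minus DMSO, 0 for PK9328 minus DMSO and 2 for MS172 minus PK9328, against 1.07%, 0.537% and 2.24% of 34807 transcripts. The transcripts called were SLC38A2-208 and, between the compounds only, SLC1A5-201.

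SLC38A2-208 (ENST00000549258.4) is annotated as a target of nonsense-mediated decay, a pathway that degrades messages with an early stop. It lacks exon 4 of the main transcript SLC38A2-201, a coding exon of 116 bases at chr12:46370512-46370627 on the minus strand. The exon leaves a remainder of 2 when divided by 3, and the annotated reading frame has 88 codons in SLC38A2-208 and 506 in SLC38A2-201. The exon, from the GENCODE 29 transcript, is shown in capitals because it is the part the transcripts differ by, and the junction line has the last bases before the skipped exon in capitals and the first bases after it in lower case.
SLC38A2-201 exon 4: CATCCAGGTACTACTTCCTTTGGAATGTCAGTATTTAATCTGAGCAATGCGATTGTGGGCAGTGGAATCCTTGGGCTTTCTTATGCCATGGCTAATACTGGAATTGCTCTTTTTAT
SLC38A2-208 junction: TATGAAACAGAATTTaattctcttgacatt

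SLC38A2-208 took 2.20%, 1.19% and 0.916% of the gene's TPM in MS172 libraries, 10.5%, 12.9% and 12.4% in PK9328 libraries, and 4.19%, 5.16% and 9.56% in DMSO libraries. The groups did not overlap, with MS172 lowest and PK9328 highest, and DMSO replicate 3 nearest the PK9328 libraries. Relative to its gene the log2 fold change was -2.11 for MS172 minus DMSO (edgeR adjusted p = 0.0017) and 0.94 for PK9328 minus DMSO, which was not called (edgeR adjusted p = 0.35) and turned to -0.33 with fragment length as a covariate. For MS172 minus PK9328 it was -3.06 (edgeR adjusted p = 3.5e-05) and lost its call with fragment length as a covariate (-1.78, edgeR adjusted p = 0.23), whereas MS172 minus DMSO kept it (-2.11, edgeR adjusted p = 0.00048). The annotated ends of SLC38A2-208 are also 96 bases shorter at the 5′ side and 292 bases shorter at the 3′ side, so reads over the ends and over the junction cannot be told apart in these tables.

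SLC1A5-201 (ENST00000412532.5) starts downstream of the main SLC1A5-203 and has 313 codons, against 541. It took 49.4%, 44.6% and 40.7% of the gene's TPM in MS172 libraries, 25.2%, 23.0% and 28.9% in PK9328 libraries, and 33.8%, 25.9% and 34.3% in DMSO libraries. MS172 was above both other groups, which overlapped. Relative to its gene MS172 minus PK9328 was 0.92 (edgeR adjusted p = 0.0026), or 1.37 with fragment length as a covariate and 0.84 without PK9328 replicate 2, neither of them called (edgeR adjusted p = 0.099 and 0.056). MS172 minus DMSO was 0.61 and not called (edgeR adjusted p = 0.11). SLC7A5-203, with 241 codons against 507 in SLC7A5-201, had a mean share of 49.1 ± 3.1% with MS172, 29.98 ± 8.7% with PK9328 and 31.4 ± 10.95% with DMSO. It was not called in any comparison, but was called for MS172 minus DMSO without DMSO replicate 3 (1.01, edgeR adjusted p = 0.028).

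**Figure D4:**
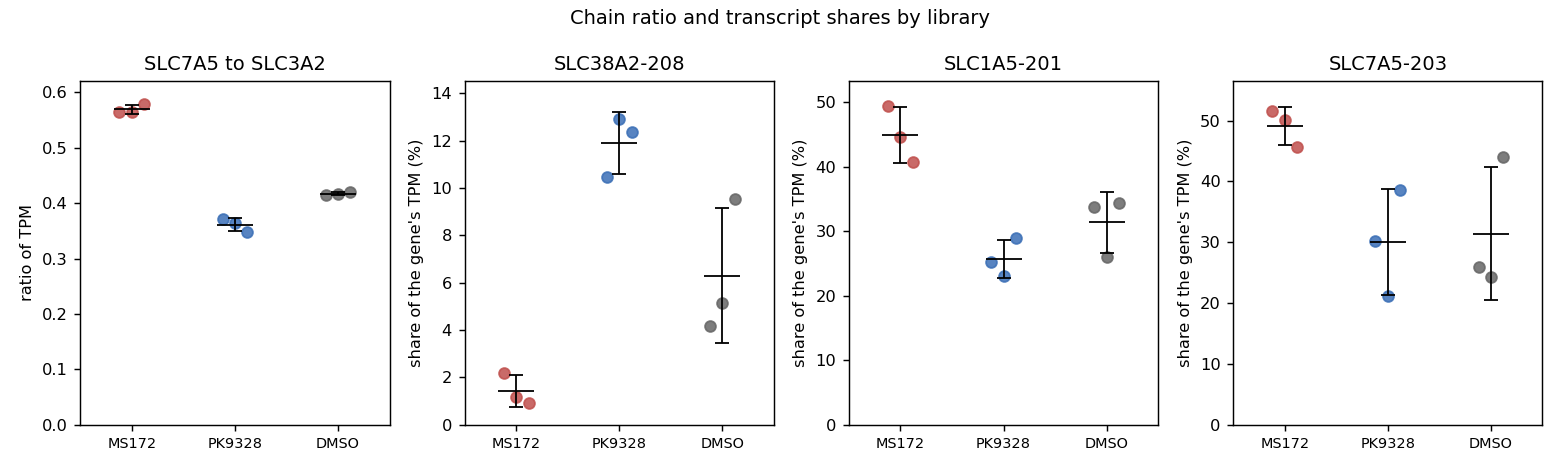
Ratio of SLC7A5 to SLC3A2 in TPM (first panel) and percent of the gene's TPM in SLC38A2-208, SLC1A5-201 and SLC7A5-203 (other panels), by library, with the mean as a line and the SD as bars, for MS172, PK9328 and DMSO. The ratio averages 0.570, 0.361 and 0.417, and SLC38A2-208 averages 1.44%, 11.9% and 6.30%, in that order of groups.

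Promoters were searched for the letters bound by factors known for these genes. The RefSeq table (GRCh38.p14) held 9 of the 10 members, in 16 windows of 300 bases from 250 bases before a start site. SLC7A11 was the member not held, so its promoter was not searched. TGATGNAA, the C/EBP-ATF response element through which ATF4 acts, was found on either strand in windows of 5 members, SLC1A4, SLC3A2, SLC38A1, SLC7A1 and SLC1A5, and in 3.62% of all 35116 windows. TGACNNNGC, the core of the antioxidant response element bound by NRF2, was found for SLC3A2, SLC7A1, SLC7A5 and SLC1A5 (13.3% of all windows), and the E-box CACGTG for SLC43A1, SLC7A5 and SLC1A5 (7.26%). The members are counted by gene and the shares by window, so a member with several windows had more room for a match. No site of one motif overlapped a site of another. Of the 5 stretches with TGATGNAA, 4 are shown, because ATF4, the factor that uses it, differed between the groups as given below; the one of SLC3A2, 37 bases after a start site, is not printed; the motif is in capitals, in the direction of the gene, and on the SLC1A4 line it reads as its reverse complement.
SLC1A4 (chr2:64989382-64989409, plus strand): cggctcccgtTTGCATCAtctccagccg
SLC38A1 (chr12:46266503-46266530, minus strand): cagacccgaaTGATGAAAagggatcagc
SLC7A1 (chr13:29595664-29595691, minus strand): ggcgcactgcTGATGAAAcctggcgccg
SLC1A5 (chr19:46784894-46784921, minus strand): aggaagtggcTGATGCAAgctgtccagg
A match is a run of letters and not a measured site. The SLC1A4 match starts 7 bases before an annotated start site, that of SLC38A1 4 bases before one and that of SLC1A5 97 bases before one, while that of SLC7A1 starts 7 bases after one. These need not be the start sites of the main transcripts. SLC38A1-201 starts at chr12:46269012, SLC1A5-203 at chr19:46788594 and SLC3A2-201 at chr11:62880872, so the matches of these genes lie downstream of those starts. The matches of SLC1A4 and SLC7A1 lie next to the starts of SLC1A4-201 and SLC7A1-201.

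Genes of the amino acid response outside transport mostly rose with PK9328 and moved both ways with MS172. Of 22 listed genes (eIF2 kinases, ATF4, its partners and targets), 10 rose and 6 fell with MS172, against 17.9% and 17.2% of all genes. Their median log2 fold change was 0.03. With PK9328, 16 rose and 0 fell, against 7.98% and 7.48% of all genes, with a median of 0.46. The 16 became 14 with fragment length as a covariate, where 0.783% of all genes rose. This list too was chosen with earlier results of these data known, so its counts are a description. On log2 TPM the MS172 counts became 3 that rose and 9 that fell. There 3.39% of all genes rose, 27.2% fell and their median moved to -0.17. Between the compounds 4 were higher with MS172 and 13 lower, against 23.3% and 24.4% of all genes. With the covariate the counts were 1 and 9 (9.83% and 7.95% of all genes), and on log2 TPM 0 and 17 (5.2% and 40.7%). ATF4 itself averaged 371 ± 11 CPM with MS172, 436 ± 11 CPM with PK9328 and 317 ± 10.0 CPM with DMSO. It rose by 0.22 with MS172 (edgeR adjusted p = 2e-05, not called on log2 TPM) and by 0.46 with PK9328 (edgeR adjusted p = 1.7e-10), and was lower with MS172 than with PK9328 (-0.23, edgeR adjusted p = 4.4e-06, not called with the covariate).

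DDIT3, the stress factor CHOP, and CHAC1 differed most between the compounds in this list. DDIT3 averaged 48.97 ± 4.7 CPM with MS172, 138 ± 7.7 CPM with PK9328 and 55.6 ± 3.4 CPM with DMSO, a log2 difference of -1.49 for MS172 minus PK9328 (edgeR adjusted p = 4.9e-12). It rose with PK9328 by 1.31 (edgeR adjusted p = 1.7e-10) and fell with MS172 by 0.18 (edgeR adjusted p = 0.039), the second call ending under the replicate block, with length-scaled TPM, on centred log2 TPM and without MS172 replicate 2 or 3 or DMSO replicate 2 or 3. The stress factor ATF3 (1.21), the stress gene NUPR1 (0.89) and the leucine sensor SESN2 (0.88) had the next largest log2 rises with PK9328. With MS172 the largest log2 changes were the eIF2 kinase gene EIF2AK3 (0.75), the factor ATF5 (0.71), CHAC1 (-0.62), which breaks down glutathione, and PPP1R15A (-0.60), a phosphatase subunit that reverses eIF2 phosphorylation. CHAC1 and PPP1R15A rose with PK9328, by 0.87 and 0.70, and both were lower with MS172 than with PK9328 (-1.49 and -1.31, edgeR adjusted p = 1.6e-20 and 6.7e-21).

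Most of the other amino acid carriers tested were not called against DMSO. Of 52 further carriers listed, 51 were found, 29 of them lay under 1 CPM in every library and 23 were tested. With MS172, 3 rose and 3 fell, against 17.9% and 17.2% of all genes, with a median log2 fold change of -0.08. With PK9328, 0 rose and 1 fell, against 7.98% and 7.48% of all genes, with a median of -0.05. On log2 TPM the MS172 counts were 0 and 6, where 3.39% of all genes rose and 27.2% fell. Among those called with MS172 the largest were SLC43A2, a relative of SLC43A1 (-0.44), the mitochondrial ornithine carrier SLC25A15 (-0.43), the mitochondrial carrier SLC25A29 (0.33) and the branched-chain carrier SLC25A44 (0.26). SLC43A2 was not called with length-scaled TPM, on either TPM scale or without MS172 replicate 1 or 3 or DMSO replicate 1 or 3. SLC38A10 was the 1 that fell with PK9328 (83.1 ± 1.9 CPM, against 91.9 ± 2.1 CPM with DMSO, log2 fold change -0.14, edgeR adjusted p = 0.013), a call that ended with fragment length as a covariate, on log2 TPM and without DMSO replicate 3 or PK9328 replicate 2 or 3. Between the compounds 2 were higher and 4 lower with MS172, against 23.3% and 24.4% of all genes. The largest of those called were SLC25A15 (-0.40), SLC38A9 (-0.31), the lysosomal cystine exporter CTNS (-0.27) and SLC38A10 (0.26). SLC38A9 turned with protein coding transcripts alone. SLC38A9 was not called with DESeq2, length-scaled TPM, centred log2 TPM or without MS172 replicate 1 or 2 or PK9328 replicate 1 or 2. CTNS was not called with length-scaled TPM, on centred log2 TPM or without PK9328 replicate 1. With fragment length as a covariate 0 of the 23 were called in this comparison, where 9.83% of all genes were higher and 7.95% lower.

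Of the other factors known for these genes, MYC was not called. It averaged 314 ± 6.0 CPM with MS172, 332 ± 15 CPM with PK9328 and 315 ± 6.8 CPM with DMSO (edgeR adjusted p = 0.94, 0.19 and 0.084 for MS172 minus DMSO, PK9328 minus DMSO and MS172 minus PK9328). NFE2L2, which encodes NRF2, rose with PK9328 by 0.38 (edgeR adjusted p = 1.7e-06) and was not called with MS172 (0.11, edgeR adjusted p = 0.083).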

How the data were processed

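Poly(A) RNA of 9 libraries was analysed. Per the file headers, each deposited table gives 197653 transcripts with an estimated count of reads, which need not be whole, and a TPM, scaled by the authors to length and library total. FastQC 0.11.8 and hg38 stand in the submitters' processing notes; the quantifier is not given in the sources used here. By identifier without version, 193348 found a partner in GENCODE 29 (the rest held 0.356% to 0.382% of reads and were dropped); these were summed to 56865 genes and rounded. Groups and replicate numbers came from the titles.

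A single edgeR 4.0.16 quasi-likelihood fit (R 4.3.3, robust, TMM, filterByExpr, no replicate term) held all libraries and 13914 genes; it was first tested on simulated data. CPM use TMM-scaled library sizes, ± is the SD or, for fold changes, the SE, and both cover the spread between libraries only. TPM ratios were tested by exact permutation. Alternatives were RLE factors, DESeq2 1.42.0, limma 3.58.1 (voom, and log2(TPM + 0.1)), other filters, fits of only the libraries compared, length-scaled TPM, fragment length as a covariate, coding transcripts only, a replicate block and each library left out. Centred TPM, transcript tests and list counts by setting were added after seeing the data.

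The members, lists and tests were chosen with earlier results of these data known. The text names all members, the called genes with the 4 largest changes per list and comparison, ATF4, DDIT3, MYC and NFE2L2, and the 2 coding genes most like each member. CHAC1 and PPP1R15A with PK9328 and TXNRD1 as an example were chosen after their values were seen. A gene that the rule names is not reported here.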

Additional observations from a re-analysis of the deposited data

How the results depend on the processing

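Over 18 alternatives for each of 10 transporters and 3 comparisons, 478 of the fold changes kept their direction and their side of the threshold, 48 lost the call, 5 gained one and 9 turned. Of called values, MS172 minus PK9328 turned for SLC38A1 on log2 TPM (-0.017) and for SLC1A5 on centred log2 TPM (0.074). Of values not called, MS172 minus PK9328 turned for SLC7A5 on centred log2 TPM (0.0916) and for SLC7A1 with RLE factors and DESeq2 (0.0026 each), length-scaled TPM (0.0074), centred log2 TPM (0.1078) and without PK9328 replicate 2 (range with a library left out -0.0374 to 0.0263). MS172 minus DMSO of SLC6A9 ran from -0.1086 to 0.0055, the highest without MS172 replicate 1. For PK9328 minus DMSO, SLC38A2-208 relative to its gene turned with the covariate (-0.3336), and SLC7A5-203 ran from -0.3055 to 0.2682 with a library left out. For MS172 minus DMSO the transporters that rose became 2 on log2 TPM, and those that fell became 0 with DESeq2, 0 with length-scaled TPM, 0 on centred log2 TPM, 2 on log2 TPM and 0 to 2 with a library left out. For PK9328 minus DMSO the transporters that rose became 3 with fragment length as a covariate, where 109 of all genes rose and 66 fell in place of 1110 and 1041. They became 6 with length-scaled TPM, on log2 TPM and on centred log2 TPM, and 7 to 9 with a library left out. For MS172 minus PK9328 those higher became 0 on log2 TPM, and those lower became 2 with the covariate and 3 on centred log2 TPM. On log2 TPM the median of all genes moved to -0.17 for MS172 minus DMSO and -0.23 for MS172 minus PK9328, and the cause was not tested. From CPM in place of TPM the log2 ratio of SLC7A5 to SLC3A2 was 0.42 for MS172 minus DMSO and 0.60 for MS172 minus PK9328. The log2 ratio of SLC7A11 to SLC3A2 for MS172 minus DMSO ran from -0.19 to 0.043 with a library left out, 0.043 being without DMSO replicate 2. Samples with the same replicate number did not deviate together (correlations -0.057 to 0.017), and the replicate block ended 1 transporter call, that of SLC38A1 for PK9328 minus DMSO (0.12, edgeR adjusted p = 0.075).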

Other observations

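Genes of amino acid sensing by mTORC1, the kinase complex that reads leucine and arginine levels, were called about as often as all genes. Of 19 tested, 4 rose and 2 fell with MS172, where 35.1% of all genes were called, and 3 rose and 0 fell with PK9328, where 15.5% were. The 3 were the leucine sensor SESN2, the GTPase regulator FLCN and the Rag GTPase RRAGC, with log2 fold changes of 0.88, 0.32 and 0.28, RRAGC losing its call with fragment length as a covariate. With MS172, RRAGC (0.26, not called on log2 TPM) and SEH1L (0.20) rose. SEH1L turned on log2 TPM and was not called with length-scaled TPM or on centred log2 TPM. RRAGB (-0.20, which turned on centred log2 TPM) and MIOS (-0.19) fell. MIOS lost the call with DESeq2, length-scaled TPM, centred log2 TPM and without MS172 replicate 1 or 3 or DMSO replicate 2 or 3. RRAGB was at the threshold (edgeR adjusted p = 0.05). Of the alternatives, its call held only with the filter of 1 CPM in 3 libraries and with coding transcripts only. Between the compounds SESN2 (-0.95), FLCN (-0.34), MIOS (-0.30) and RRAGB (-0.25) were lower with MS172. There RRAGB was not called with length-scaled TPM, on centred log2 TPM or with the covariate, and MIOS was not called on centred log2 TPM.

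Of 11 genes of cystine and glutathione metabolism, SLC3A2 among them, 4 rose and 1 fell with MS172, where 35.1% of all genes were called. With PK9328, 5 rose and 0 fell, where 15.5% of all genes were called. Between the compounds 5 were higher and 4 lower with MS172, where 47.7% of all genes were called. TXNRD1, a thioredoxin reductase, averaged 299 ± 1.5 CPM with MS172, 189 ± 3.5 CPM with PK9328 and 147 ± 7.6 CPM with DMSO (SD, n = 3 each), and its log2 difference of 0.66 between MS172 and PK9328 was called (edgeR adjusted p = 6.3e-15). The glutathione peroxidase GPX4 (0.18) and the NRF2 inhibitor KEAP1 (0.15, which turned on log2 TPM) also rose with MS172. The repressor BACH1 was lower with MS172 than with PK9328 (-0.29, edgeR adjusted p = 0.0082), which was not called with length-scaled TPM or on centred log2 TPM.

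Among 8792 coding genes of at least 10 CPM on average, SESN2 (Pearson r = 0.9956) and DDIT3 (r = 0.9942) were most like SLC3A2 in log2 CPM over the 9 libraries. The closest were ETF1 and CDCP1 to SLC38A2, ETF1 and SPRED2 to SLC38A1, TIGAR and ATF4 to SLC1A4, and MTHFD2 and BBC3 to SLC1A5. They were TGIF1 and LMO4 for SLC7A5, WDR43 and ZNF131 for SLC7A11, CCDC71L and ETV5 for SLC7A1, GCC1 and XPA for SLC6A9, and ZMAT5 and SUGP1 for SLC43A1, with r of at least 0.9686 in all pairs. These are descriptions, since the 9 libraries form 3 groups.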
